A study of Mus musculus with 6 samples.

Results

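The histone genes of inguinal adipose tissue (iAT) of mice at postnatal day 6 were examined, as 1 group of replication-dependent genes and 1 group of variant genes. Members were chosen by symbol alone, so that Hist3h2bb-ps, marked by its symbol as a pseudogene, is counted among the replication-dependent genes. Symbols that start with Hist1h, Hist2h, Hist3h or Hist4h made up the replication-dependent class (66 genes), and symbols that start with H2af or H3f3, with H1f0 and H1fx, made up the variant class (12 genes), 78 of the 19831 listed genes in all. The samples were 3 of wild-type mice (WT) and 3 of mice in which Npffr1, a gene for a receptor of the neuropeptide FF, was knocked out (Npffr1-KO, here KO). No treatment was named for any of the 6. Specific-pathogen-free housing and extraction of total RNA with TRIzol are given in the methods of the study, which do not name the knockout line there. The sources used here do not say whether animals were pooled or how the allele was made. The methods of the study name male C57BL/6 mice of this age in general, without saying so of the knockout line. The tissue was sequenced whole, so fewer cells of a type and less RNA per cell cannot be told apart.

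Histones are the proteins around which DNA is wound. The core types H2A, H2B, H3 and H4 form the nucleosome, and H1 binds the DNA between nucleosomes. Replication-dependent histone genes lie in clusters, have no introns in most cases, and are used when DNA is copied in S phase. Their messenger RNA typically ends, downstream of the coding sequence, in a conserved stem-loop in place of a poly(A) tail, which the stem-loop binding protein Slbp recognises. Variant histone genes are used throughout the cell cycle or in cells that no longer divide, and most of their messages carry a poly(A) tail. Adipose tissue of newborn mice holds dividing progenitor and immune cells beside adipocytes, which do not divide.

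The deposited table gives 1 normalized count per gene and genotype, so no spread between samples belongs to these values. For genes with a mean of up to 100, the mean of the 2 values was resolved into the reads of each library. This succeeded for 59 of the 66 replication-dependent genes and for the 2 lowest variant genes. The other 17 members, among them the 10 variant genes with the highest values, have 1 value per genotype. Libraries are called WT library A to C and KO library A to C, since they could not be tied to sample numbers. Their size factors lay between 0.916 and 1.04, and the genes with recovered reads held between 102079 and 127858 reads per library. Npffr1 itself had 5, 0 and 1 reads in the WT libraries and 0 in each KO library, too few to check the labels. Markers of adipocytes were abundant, with Fabp4, a fatty acid carrier, at a mean of 164736 normalized counts. The sources used here do not say whether poly(A) RNA was selected, and a selection of this kind would leave out messages without a tail.

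The stem-loop is the feature that separates the classes by sequence. It was found in the transcripts of 45 of the 64 replication-dependent genes that matched the GENCODE M21 annotation (70.3%), in 1 of 11 matched variant genes, and in 0.982% of 21901 protein-coding genes. That variant was H2afx, which marks sites of DNA damage when phosphorylated. The following stretches show the element in capitals with its flanks in lower case, because the bases of its stem differ by histone type. They lie, in the mouse build GRCm38, at chr13:21833026-21833049 (minus strand) for Hist1h2ap, chr13:23747198-23747223 (plus strand) for Hist1h2bb, chr13:22040961-22040986 (minus strand) for Hist1h4i, chr13:23757361-23757386 (plus strand) for Hist1h4b and chr9:44335235-44335260 (plus strand) for H2afx.
Hist1h2ap: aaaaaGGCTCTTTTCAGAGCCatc
Hist1h2bb: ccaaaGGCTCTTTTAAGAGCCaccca
Hist1h4i: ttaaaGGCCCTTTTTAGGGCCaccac
Hist1h4b: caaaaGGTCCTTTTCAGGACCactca
H2afx: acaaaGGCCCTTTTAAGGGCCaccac
The form of Hist1h2ap was shared by 26 members of the types H1, H2A, H2B and H3, and no H4 gene had it. The H4 genes had 4 other forms, the commonest of them in 7 genes. The annotated transcripts do not all stop at this element. The transcript ended within 60 bases after it in 22 replication-dependent genes and ran on for 100 bases or more in another 22. The poly(A) signal AATAAA stood in the last 40 bases of 14 of 64 replication-dependent genes (21.9%), of 8 of 11 variant genes (72.7%) and of 64.1% of all protein-coding genes. In 11 replication-dependent genes both features were present, and Hist1h1c and Hist3h2a were among them. Some annotated transcripts hold almost nothing after the coding sequence. That of Hist1h3h has 411 bases, where the H3 genes have 408 coding bases before the stop codon. Neither feature could be found downstream in such transcripts, so the counts describe the annotation and may miss genes that have the stem-loop.

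Coding sequences of the replication-dependent genes are near copies of each other, which bears on how reads can be assigned. Over the 408 coding bases before the stop codon, the 12 replication-dependent H3 genes were between 93.6% and 100% identical in pairs. H3f3a, by contrast, was between 77.0% and 77.9% identical to them, and H3f3b between 80.4% and 81.6%. The first 120 coding bases, exonic in each case, are shown for 1 gene of the H3 cluster on chromosome 3 and for 4 genes set against it, with the bases that differ from Hist2h3c1 in capitals. They lie at chr3:96246886-96247005 (plus strand) for Hist2h3c1, chr3:96268694-96268813 (plus strand) for Hist2h3b, chr13:23762234-23762353 (minus strand) for Hist1h3a, chr1:180811807-180811926 (minus strand) for H3f3a and chr11:116023890-116024009 (minus strand) for H3f3b.
Hist2h3c1: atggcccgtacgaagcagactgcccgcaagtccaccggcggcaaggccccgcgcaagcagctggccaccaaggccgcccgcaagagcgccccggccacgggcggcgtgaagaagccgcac
Hist2h3b: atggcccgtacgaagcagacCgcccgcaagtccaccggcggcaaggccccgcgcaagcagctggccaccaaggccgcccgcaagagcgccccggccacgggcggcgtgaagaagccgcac
Hist1h3a: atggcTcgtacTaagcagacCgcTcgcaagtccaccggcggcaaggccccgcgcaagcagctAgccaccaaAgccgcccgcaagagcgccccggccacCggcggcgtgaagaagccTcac
H3f3a: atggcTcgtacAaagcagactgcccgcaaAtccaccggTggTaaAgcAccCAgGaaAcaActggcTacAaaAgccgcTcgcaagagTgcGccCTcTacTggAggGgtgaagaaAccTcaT
H3f3b: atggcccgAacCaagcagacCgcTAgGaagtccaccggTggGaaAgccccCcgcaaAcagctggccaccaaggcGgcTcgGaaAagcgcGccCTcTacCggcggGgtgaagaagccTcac
Hist2h3c2 was identical to Hist2h3c1 over all 408 bases, and Hist2h3b differed from both at 1 base. The 13 H4 genes were between 85.4% and 100% identical over 309 coding bases, and Hist1h4m and Hist1h4n did not differ at any of them. Hist1h4b differed from Hist1h4n at 11 bases, 7 of them in the stretch shown here, which lies at chr13:21832039-21832158 (minus strand) for Hist1h4n and chr13:23757021-23757140 (plus strand) for Hist1h4b, again with differing bases in capitals.
Hist1h4n: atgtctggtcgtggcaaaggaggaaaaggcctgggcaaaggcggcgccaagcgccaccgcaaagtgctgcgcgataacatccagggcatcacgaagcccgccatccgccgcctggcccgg
Hist1h4b: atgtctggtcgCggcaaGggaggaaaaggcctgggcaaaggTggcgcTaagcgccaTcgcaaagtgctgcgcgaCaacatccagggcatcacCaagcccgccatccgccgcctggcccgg
Over whole transcripts, a median of 61.0% of the words of 31 bases of a replication-dependent gene also occurred in other genes, against 11.2% in the variant class. At least 50% were shared in 41 replication-dependent genes and in 1 variant gene, H2afb3. The other genes here are all annotated genes, not the members alone. Hist2h2bb, at 100%, had at most 4.56% of its words in common with any single member, and H2afb3 had none in common with a member. Where members share words, their reads can be split between copies by the authors' counting, and the values of single copies are uncertain to that extent.

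Promoters also differed between classes and types. RefSeq promoters, 250 bases before to 50 after the start, were found for 59 replication-dependent and 10 variant genes (60 and 10 windows) and searched on both strands for 3 motifs, none of which contains another. The first, CCAAT, was present in 85.0% of the replication-dependent windows, 70.0% of the variant windows and 37.4% of all 32851 windows. All windows of the types H1, H2A, H2B and H3 held it, but 3 of 12 H4 windows did. The TATA box, searched as TATAAA, was found in 33 of 60, 1 of 10 and 13.6% of the windows respectively. The octamer bound by Pou2f1, searched as ATTTGCAT, was found in 12 replication-dependent windows, all of H2A or H2B genes, in 1 of 10 variant windows and in 1.74% of all windows. That variant was H3f3b, whose window held all 3 motifs. The median GC content was 45.3% in the replication-dependent class, 68.5% in the variant class and 52.7% in all windows. A window each is shown to contrast an H2B gene that has all 3 motifs, an H4 gene that has none and a variant gene with high GC content. They lie in GRCm38.p6 at chr13:23746484-23746783 (plus strand) for Hist1h2bb, chr13:23756687-23756986 (plus strand) for Hist1h4b and chr3:137864237-137864536 (plus strand) for H2afz, with the motifs in capitals.
Hist1h2bb: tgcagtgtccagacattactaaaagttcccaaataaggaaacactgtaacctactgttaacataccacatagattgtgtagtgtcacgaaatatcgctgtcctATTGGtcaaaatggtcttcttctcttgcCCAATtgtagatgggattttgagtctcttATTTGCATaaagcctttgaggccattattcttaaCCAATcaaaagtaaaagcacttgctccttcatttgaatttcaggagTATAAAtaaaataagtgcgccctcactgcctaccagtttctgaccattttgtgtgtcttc
Hist1h4b: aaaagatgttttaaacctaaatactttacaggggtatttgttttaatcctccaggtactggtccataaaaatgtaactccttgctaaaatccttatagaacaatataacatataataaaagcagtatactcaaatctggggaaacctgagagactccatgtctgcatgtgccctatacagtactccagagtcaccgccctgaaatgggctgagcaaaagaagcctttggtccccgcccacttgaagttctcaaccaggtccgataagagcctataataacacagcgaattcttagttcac
H2afz: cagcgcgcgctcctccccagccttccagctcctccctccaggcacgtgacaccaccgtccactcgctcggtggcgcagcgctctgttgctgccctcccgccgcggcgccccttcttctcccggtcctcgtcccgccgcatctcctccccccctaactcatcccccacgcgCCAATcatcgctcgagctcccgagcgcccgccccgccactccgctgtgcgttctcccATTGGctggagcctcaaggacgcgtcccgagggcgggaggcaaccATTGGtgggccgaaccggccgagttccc
A match describes letters and does not show that a factor was bound.

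The classes differed in length and in level. The listed length had a median of 483 bases (358 to 2983) in the replication-dependent class and 1732 bases (645 to 2304) in the variant class. Under 1000 bases were 63 of 66 replication-dependent genes and 1 of 12 variant genes, H2afb3, against 13.0% of all listed genes. Divided by this length, the WT value had a median of 9.98 normalized counts per kb (0.351 to 8678) in the replication-dependent class and 1124 (0.476 to 12866) in the variant class. The ratio of these medians was 113, and the median over all listed genes was 103 per kb. The listed length is short where the annotated transcript runs on, for example 725 bases for Hist1h1c against 1560 in GENCODE, so levels per kb depend on the length taken. It equalled the span of the RefSeq gene for 48 of the 66 replication-dependent genes and 3 of the 12 variant genes.

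**Figure D1:**
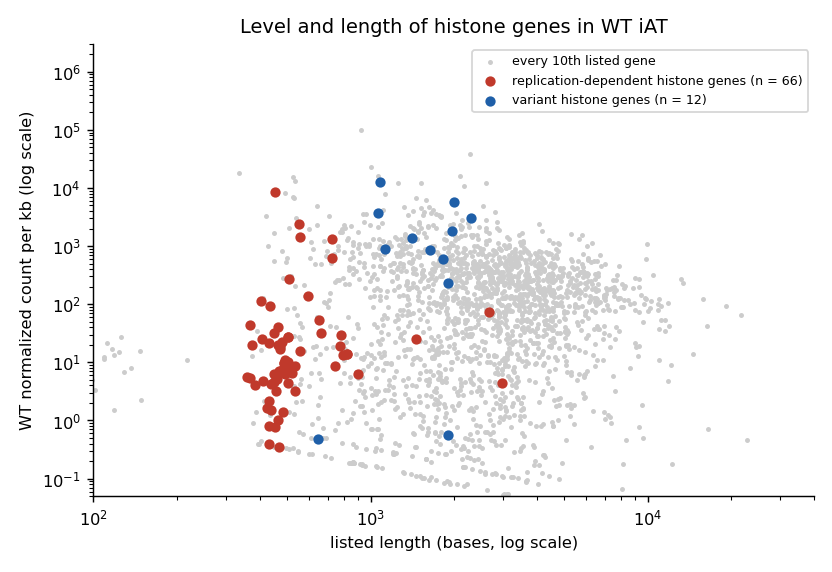
Level of each histone gene in WT iAT (normalized count per kb, log scale) against its listed length (bases, log scale), with every 10th listed gene in grey. Red points are the 66 replication-dependent genes, crowded around a median of 483 bases and 9.98 normalized counts per kb, and blue points are the 12 variant genes, 10 of which lie at 236 per kb or above.

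A few genes held most of the replication-dependent signal. Hist1h2ap and Hist1h2ao, a pair of H2A genes on chromosome 13 that share 93.8% of the words of the smaller, made up 62.7% of the WT sum of the class, which was 8375 normalized counts. With the H2B gene Hist1h2bc and the H2A gene Hist2h2aa1 the share was 83.6%. The 59 genes with a mean under 100 together held 6.99% of it. Per kb, Hist1h2ap stood at 8678, Hist1h2ao at 2409, Hist2h2aa1 at 1427, Hist1h2bc at 1321 and the linker histone gene Hist1h1c at 622 in WT. Next came Hist3h2a at 273, Hist2h2aa2 at 140, Hist1h4i at 115, Hist1h4h at 93.3 and Hist2h2be at 73.0. The 7 genes with the highest mean have 1 value per genotype and no spread, and the order was not tested. Of the H3 type the highest, Hist2h3c2, reached 53.2 per kb, and the 12 H3 genes summed to 129 normalized counts in WT against 6334 for the 18 H2A genes. The H2B genes (18) summed to 1271, the H1 genes (5) to 506 and the H4 genes (13) to 135. For low genes the deposited values of the genotypes are drawn together, so their WT values are not the WT reads. The reads of the 12 H3 genes, divided by size factors, averaged 110 in WT and 152 in KO, against deposited sums of 129 and 134. A mean under 10 normalized counts was listed for 40 of the 66 genes, and Hist1h2aa, Hist1h2bn, Hist1h2af and Hist1h2bf had no more than 2 reads in all.

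Variant genes were among the higher genes of the table. H3f3a and H3f3b, which both encode the replacement H3 protein deposited outside S phase, stood at 12866 and 5736 per kb in WT, above 99.4% and 98.7% of all genes. H2afz, the gene of H2A.Z found near promoters, had 3761 per kb and H1f0, a linker histone of resting cells, 3091. H2afy, the gene of macroH2A1 known from silent chromatin, followed with 1821 per kb and H2afx with 1363. H1fx had 885, H2afv, a second H2A.Z gene, 853, H2afj 609 and H2afy2, the gene of macroH2A2, 236 per kb. The 2 remaining genes were near the floor of detection. H2afy3 had 2, 1 and 2 reads in the WT libraries and 0, 0 and 1 in the KO libraries, and H2afb3, whose family is known from testis, had 2 reads, both in KO library C. Of the testis germ cell markers, 4 were listed, with a summed level of 9.15 normalized counts in WT and 9.13 in KO. In all, variant values summed to 46021 in WT, 5.50 times the replication-dependent sum.

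Between the genotypes, no histone gene with a mean of at least 10 differed by 1.5-fold or more in the deposited values, which the authors' estimate draws together for low genes. Of the 36 members tested by this criterion, 0 were past it in either direction, where 2.78% of 15309 genes were past it upward and 3.12% downward. Replication-dependent genes had a higher value in KO in 18 of 26 cases (69.2%) and variant genes in 7 of 10 (70.0%), against 51.2% of all genes. Hist1h2bq and Hist1h2br, whose values are equal, count as 2 genes here and in the counts below. The median of log2(KO value/WT value) was 0.15 in the replication-dependent class (-0.50 to 0.53), 0.15 in the variant class (-0.35 to 0.27) and 0.01 over all genes. The ratio of the class sums was 0.26 on the log2 scale for the replication-dependent genes and 0.07 for the variant genes. These ratios carry no test, since the table has 1 value per genotype. In the mean reads of the libraries, a comparison added after the values were seen, 2 of the 19 members with recovered reads and a mean of at least 10 were past 1.5-fold upward, against 10.7% of 2896 genes, and 1 was downward, against 14.3%. These were Hist2h3c1 (2.34-fold) and Hist2h3c2 (2.10-fold), and Hist2h3b, which had 15.6 ± 3.19 reads in WT and 7.77 ± 10.2 in KO (SD, n = 3 each) after division by size factors. All 3 are H3 genes that share sequence and whose reads are given by library further on.

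Length has to be read beside these values. Over all genes the log2 ratio was lower in longer genes, from a median of 0.27 in the shortest of 20 length classes (64 to 837 bases) to -0.15 in the longest. Of the 26 replication-dependent genes with a mean of at least 10, 23 lay in the shortest class. Among all genes under 1000 bases with a mean of at least 10, 954 of 1193 had a higher value in KO. Taken relative to genes of like length, 9 of 26 replication-dependent genes were higher in KO, with a median of -0.07, and 5 of 10 variant genes were, with a median of 0.00. Split by level, the 7 replication-dependent genes with a mean of at least 100 were higher in KO in 5 cases on this scale, with a median of 0.09, and the 19 lower ones in 4 cases, with a median of -0.14. The ratios of the lower genes are drawn towards 0. Whether length, or something that goes with it, gives rise to the trend was not tested.

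**Figure D2:**
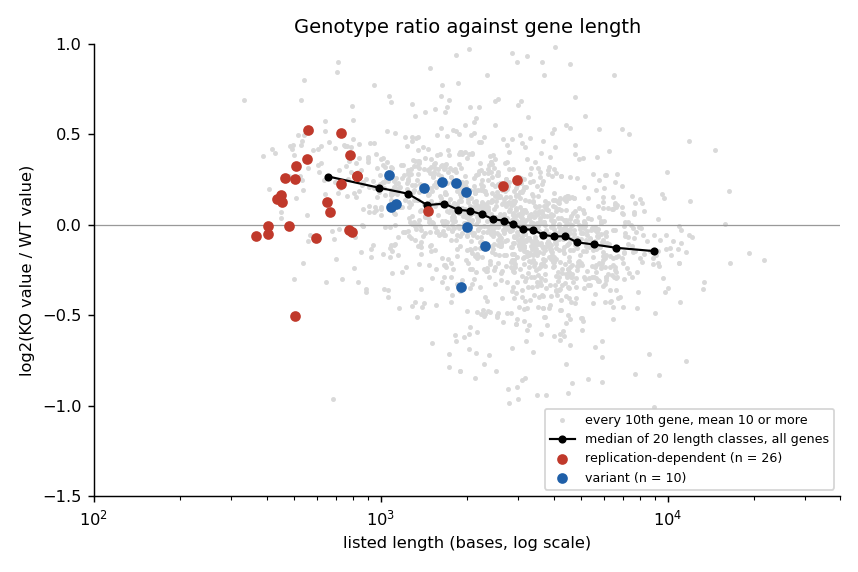
log2(KO value/WT value) against listed length (bases, log scale) for genes with a mean of at least 10, with every 10th gene in grey, limited to ratios from -1.5 to 1. The black line joins the medians of 20 length classes of all genes and falls from 0.27 to -0.15, and of the 26 replication-dependent genes (red) 9 lie above the median of their class, of the 10 variant genes (blue) 5.

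By type, most H2B and H2A genes with a mean of at least 10 had a higher value in KO and 3 of 4 H4 genes a lower one. All 6 H2B genes with a mean of at least 10 had a higher KO value, with a median log2 ratio of 0.26, or 0.00 relative to genes of like length. Hist1h2bq and Hist1h2br, with equal values, are 2 of these 6. Hist1h2bc had 959 normalized counts in WT and 1363 in KO, a log2 ratio of 0.51, and 0.24 relative to genes of like length. Hist2h2be had 195 and 226 normalized counts, a log2 ratio of 0.21. Of the H2A genes, 6 of 7 were higher in KO, with a median of 0.25. Hist2h2aa1 had 793 normalized counts in WT and 1141 in KO, at 0.53 the largest log2 ratio of any member with a mean of at least 10. All words of its copy Hist2h2aa2 occur in it, so the values of both genes depend on how reads were split. Hist1h2ao had 1330 and 1708 (log2 ratio 0.36), Hist3h2a 139 and 174 (0.32), and Hist1h2ap, the highest of all, 3923 and 4283 (0.13). The last value is below the median of its length class by 0.14 on the log2 scale. Of the 4 H1 genes 2 were higher, with Hist1h1c at 451 and 527 normalized counts and a log2 ratio of 0.22. The 5 H3 genes had a median of 0.07 and the 4 H4 genes of -0.03, with 3 of the 4 lower in KO. Relative to genes of like length, none of the 9 H3 and H4 genes was higher in KO, the largest deviation being that of Hist2h3b at -0.77. The deposited ratios of these low genes are drawn towards 0, while the median of the shortest length class was 0.27. Summed over all 13 H4 genes, in contrast, the values were higher in KO. The log2 ratio of these sums was 0.10 in the deposited values and 0.18 in the reads. That of all 12 H3 genes was 0.05 in the deposited values and 0.46 in the reads. The reads of the 14 H2A genes with recovered reads, which leave out the highest ones, differed by -0.05 on that scale. The differences between types were not tested.

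Reads per library show the spread behind the lower genes. Hist1h4i, an H4 gene, had 67, 24 and 51 reads in the WT libraries and 47, 28 and 61 in the KO libraries. Hist1h4h, a further H4 gene, had 46, 24 and 53 reads against 52, 48 and 32. The WT and KO ranges overlapped in both, and WT library B was the lowest of the WT libraries. Hist2h2aa2 had 67, 69 and 125 reads in WT and 13, 111 and 110 in KO. KO library A stood far below the other libraries for this H2A gene. All 498 of its words of 31 bases also occur in Hist2h2aa1, whose reads per library were not recovered. How reads were split between these copies was not tested. Summed over the 59 genes, the libraries held 666, 432 and 620 reads in WT and 557, 617 and 727 in KO. Divided by size factors the sums were 561 ± 123 in WT and 644 ± 49.9 in KO (SD, n = 3 each), a difference of 0.20 on the log2 scale within the spread of the WT libraries.

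limma fitted to these reads called no histone gene. Of 4382 genes with a mean of at least 3, 1 passed an adjusted p of 0.05 (0.0228%), and of the 40 members tested 0 did, the lowest adjusted p being 0.36. limma-voom called 0 members as well. At an unadjusted p under 0.05 stood 4 of 40 members, against 10.2% of all genes tested, and also 4 with limma-voom. The result does not show that the genes were alike. The p-values set the genotype difference against the spread between these libraries, and nothing in the labels says how many animals each sample holds.

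The 4 genes, named after their values were seen, were low. Hist1h4b had 0 reads in each WT library and 4, 12 and 7 in the KO libraries, at least 7.98-fold higher in KO against a floor of 3 reads over the WT group. Its log2 difference in the limma fit was 3.93 ± 1.32 (SE), with an adjusted p of 0.36. Hist1h4n likewise had 0 reads in WT and 7, 10 and 2 in KO, at least 6.59-fold higher against the same floor, and an adjusted p of 0.42. Both fitted differences depend on the pseudocount, and both bounds apply to the reads as assigned to these copies. Hist1h4n and Hist1h4m, identical in coding bases, together had 19, 8 and 8 reads in WT and 7, 10 and 30 in KO. The H2B gene Hist1h2bb had 1 read in each WT library and 4, 11 and 15 reads in KO, with a log2 difference of 2.68 ± 0.87 (SE) and an adjusted p of 0.36. For these 3 genes the libraries of the genotypes did not overlap, which held for 3 of 40 members and for 15.4% of all 4382 genes. Hist2h3b, an H3 gene, went the other way, with 14, 14 and 20 reads in WT and 0, 4 and 20 in KO, a log2 difference of -2.17 ± 0.96 (SE) and an adjusted p of 0.46. Without KO library A the difference of Hist2h3b was -0.75, and without KO library C it was -3.40.

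**Figure D3:**
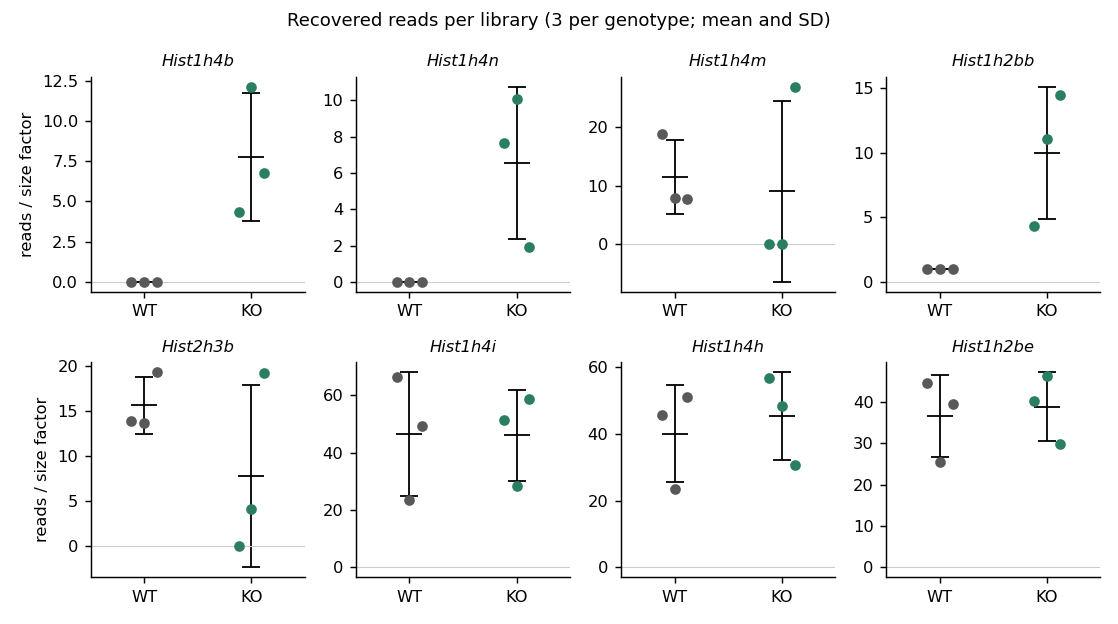
Reads divided by size factor (y axis) in the 3 WT (grey) and 3 KO libraries (green) for 8 replication-dependent genes, each point a library, with the mean and SD in black. Hist1h4b, Hist1h4n and Hist1h2bb have no overlap between the genotypes at 15 reads or fewer per library, while Hist1h4i, Hist1h4h and Hist1h2be overlap.

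Reads of genes with identical coding bases lay in different genes from library to library. Hist2h3c1 had 0, 0 and 40 reads in the WT libraries and 83, 0 and 0 in the KO libraries. Hist2h3c2, identical over the coding bases and sharing 64.2% of the words of the smaller, had 34, 37 and 0 reads in WT and 0, 89 and 59 in KO. In every library 1 of the 2 genes thus held all their reads and the other none. Added to those of Hist2h3b, the reads were 48, 51 and 60 in WT and 83, 93 and 79 in KO. After division by size factors this was 51.8 ± 5.41 in WT and 86.9 ± 9.43 in KO (SD, n = 3 each), a difference of 0.74 on the log2 scale without overlap of the libraries. The sum was formed after the values were seen and carries no test, and of the 3 genes alone Hist2h3c1 and Hist2h3c2 had an unadjusted p of 0.84 and 0.69 in the limma fit.

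**Figure D4:**
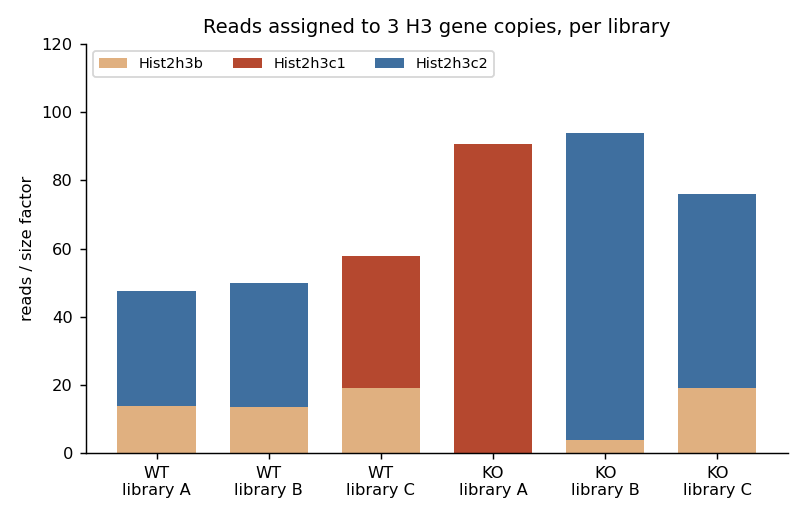
Reads divided by size factor (y axis) assigned to 3 H3 genes in each library, stacked. Hist2h3c1 (red) and Hist2h3c2 (blue) never share a library, and the stacks of the KO libraries, 86.9 on average, stand above those of the WT libraries, 51.8 on average.

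Hist1h4m and Hist1h4n, with identical coding bases, showed a similar exchange. Hist1h4m had 19, 8 and 8 reads in WT and 0, 0 and 28 in KO, where KO libraries A and B held 7 and 10 reads of Hist1h4n. Their sum was 19, 8 and 8 reads in WT and 7, 10 and 30 in KO, and the genotypes overlapped. For all 13 H4 genes together the reads were 173, 80 and 147 in WT and 146, 130 and 160 in KO. H4 reads as a type were thus present in every WT library. Summed over the 12 H3 genes, the libraries had 130, 98 and 110 reads in WT and 134, 160 and 154 in KO, a difference of 0.46 on the log2 scale that includes the Hist2h3 sum. Hist1h2bq and Hist1h2br had equal reads in every library, 14, 8 and 11 in WT and 17, 6 and 19 in KO, and share 98.3% of their words.

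The spread between libraries of a genotype was large for the class as a whole. It was taken as the squared deviation of the reads from their expectation under the size factors, divided by that expectation, which counting error alone would bring to about 1. Its median was 3.92 over 40 replication-dependent genes with a mean of at least 3 and 2.36 over all 4382 genes. In the H3 type it reached a median of 6.10, and 65.5 in Hist2h3c1. Of the 31 replication-dependent genes with a mean of at least 5, 7 had a library with 0 reads (22.6%), against 4.50% of all such genes. Among genes that share at least 50% of their words with others this held for 6 of 18, and among those that share less for 1 of 12. The median of the spread itself was 4.67 over 25 genes that share at least 50% and 3.92 over 14 that share less. Values over 3 were found in 64.0% and 57.1% of them. For the 3 Hist2h3 genes the value was 65.5, 28.5 and 6.65 in the single genes and 0.810 in their sum. For Hist1h4m and Hist1h4n it was 14.7 and 1.38 in the single genes and 6.07 in their sum. In the sums over H1, H2A, H2B and H4 genes it lay between 6.32 and 12.6, and in the sum over H3 genes it was 1.53. How much of the spread comes from the assignment of reads to copies was not tested.

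Among variant genes H2afz had the largest ratio, with 4016 normalized counts in WT and 4853 in KO, 0.27 on the log2 scale and 0.07 relative to genes of like length. H2afv followed with 1395 and 1646 (log2 ratio 0.24) and H2afj with 1113 and 1305 (0.23). H2afx had 1928 and 2222 normalized counts (0.20) and H2afy 3594 and 4083 (0.18). For the linker histone H1fx the values were 997 and 1078 (0.11). The H3f3 pair was nearly level, at 13972 and 14967 for H3f3a (0.10) and 11431 and 11352 for H3f3b (-0.01). Lower in KO were H1f0 at 7122 and 6568 (-0.12) and H2afy2 at 451 and 355 normalized counts. H2afy2, with a log2 ratio of -0.35 and -0.43 relative to genes of like length, thus lay opposite to H2afy, the other macroH2A gene, at 0.18 and 0.11. None of these values has a spread over samples.

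Genes that make, carry or accompany histones were described from fixed lists. In the list of histone mRNA synthesis and processing, 26 of 30 names were in the table under that symbol. The names not found, Ars2, Slip1, Tut7 and Znf473, are other names of Srrt, Mif4gd, Zcchc6 and Zfp473, which are among the 26. Of the 26 genes, 13 were higher and 13 lower in KO, with a median log2 ratio of 0.02 and 0 past 1.5-fold. Slbp had a log2 ratio of 0.21, and Npat, the activator of histone gene transcription in S phase, had -0.37, the lowest of the list. Casp8ap2, its partner in the histone locus body, stood at 0.05. Lsm10, a part of the U7 particle that cuts histone messages, had 0.38, Ncbp1 of the cap-binding complex 0.25 and Pou2f1 -0.24. Histone chaperones and deposition factors were higher in KO in 20 of 31 cases, with a median of 0.07, or 26 of 31 and 0.09 relative to genes of like length. Asf1b and Chaf1a, which hand new histones to replicating DNA, had 0.34 each. Dnajc9 had 0.38, Znhit1 0.33 and Chaf1b 0.27. Genes of S phase and the cell cycle were higher in KO in 24 of 25 cases, with a median of 0.25, and 0 passed 1.5-fold. Relative to genes of like length the median was 0.26 and 22 of 25 were higher. Mki67 had a log2 ratio of 0.12, Pcna 0.34, Mcm3 0.47 and Mcm5 0.44. Of 7 divergent histones outside the rule, 3 were in the table, and 1 of these, the centromere histone Cenpa at 0.13, had a mean of at least 10.

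**Figure D5:**
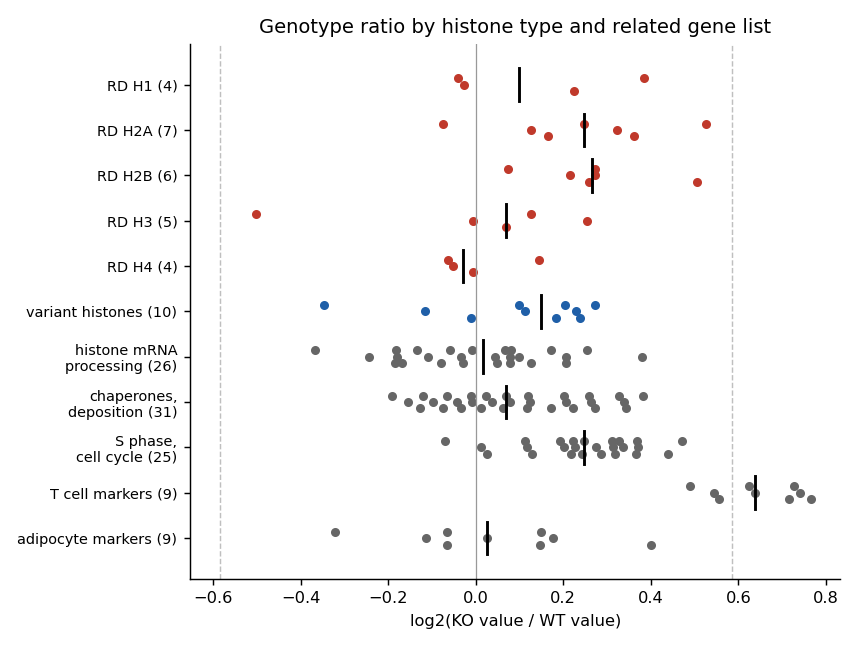
log2(KO value/WT value) of single genes with a mean of at least 10 (points) and medians (black bars) for replication-dependent (RD) histone genes by type, variant histones, 3 gene lists and markers of 2 cell types, with the number of genes in parentheses. Dashed lines mark 1.5-fold, which 6 of 9 T cell markers exceed and no histone gene does on these values, and the S phase list has a median of 0.25.

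Markers of most other cells also had higher values in KO. All 9 listed T cell markers were higher in KO, 6 of them past 1.5-fold, with a median log2 ratio of 0.64 and a summed level of 8673 normalized counts in WT and 13554 in KO. B cell markers were higher in 6 of 6 cases (median 0.26, summed level 9265 and 10941) and macrophage markers in 6 of 8 (median 0.24, 24455 and 28660). Erythroid markers were higher in 8 of 8 cases (median 0.23, 171769 and 194610). Skeletal muscle markers were higher in 7 of 7 with a mean of at least 10 (median 0.75, summed level 680 and 1157), and Myh4 was close to 0. Adipocyte markers were higher in 5 of 9 cases, with a median of 0.03. Relative to genes of like length the medians were 0.56 for T cell, 0.57 for muscle, 0.13 for B cell, 0.06 for macrophage, 0.02 for erythroid (4 of 8 higher) and -0.12 for adipocyte markers (4 of 9). The part of these cells in the histone values was not tested.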

How the data were processed

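RNA of inguinal adipose tissue from 3 WT and 3 Npffr1-KO samples at postnatal day 6 was sequenced. Per the labels the authors used Bowtie2, RSEM and DESeq2, while versions, roles and the genome build were not stated in the sources used here. The deposited table holds, per gene and genotype, a normalized count signal made by the authors, a listed length, and the authors' log2 fold changes and p-values, which were not used. A second, filtered table was not used. The 2 values of a gene have as their mean the mean normalized count of all libraries, so each mean was searched for whole reads times 6 library steps. Exactly 1 combination was found for 7418 of 7612 genes with a mean of up to 100 (97.5%), and the direction was that of the 2 values for 5213 of 5213 genes with a log2 ratio over 0.1 in size. The recovered reads are whole numbers, and whether they are rounded RSEM estimates was not stated in the sources used here. The search and the fit were tested on simulated data. limma 3.58.1 (R 4.3.3) with trend was fitted to log2(reads/size factor + 0.5) over 4382 genes with a mean of at least 3, with Benjamini-Hochberg adjustment, a threshold of 0.05 and two-sided tests. Where the text gives a log2 ratio, it is that of the 2 deposited values without a pseudocount, and a mean of at least 10 was required for counts and medians. Depth is known for genes with recovered reads, 102079 to 127858 reads per library, and counting error and the spread of 3 libraries limit the precision.

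Transcripts came from GENCODE M21 (GRCm38), matched by Entrez identifier, and promoters from RefSeq (GRCm38.p6). Of the members, 3 did not match GENCODE. The members and lists were chosen with earlier results of these data known. Named genes are the 10 replication-dependent genes with the highest mean, all variant genes, and from each list the genes fixed beforehand with up to 3 of the largest log2 ratios, of which 1 is not reported here. Other names were chosen after their values were seen. These are the genes shown for their sequence or for their reads per library.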

Additional observations from a re-analysis of the deposited data

How the results depend on the processing

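Centring on genes of like length turned the median log2 ratio of the replication-dependent genes from 0.15 to -0.073 and their share higher in KO from 69.2% to 34.6%, moved the median of the variant genes to 0.0043, and put 1 member, Hist2h3b, past 1.5-fold. Centring on the median of all genes moved the medians by less than 0.01. Members past the fold in either direction numbered 0 of 36 with the settings used, where 5.89% of all genes were past it. They numbered 4 of 57 with a minimum mean of 3, against 6.83% of all genes, and 5 of 78 with none, against 6.09%. At the lower of the other folds tried they numbered 7 of 36, against 23.7% of all genes. When the mean reads replaced the deposited values (added after seeing the data), 3 of 19 members were past the fold. Of all genes, 10.7% were past it upward on the mean reads and 14.3% downward. The ratios of low genes are drawn together in the deposited values. The median of the replication-dependent genes was 0.27 with a minimum mean of 50. The ratio of the class medians per kb was 274 when values were not divided by length and 43.6 when members under a mean of 10 were left out, against 113. limma called 0 members in every alternative run, that is with minimum means of 5, 10 and none, pseudocounts of 0.1 and 2, limma-voom, and each of the 6 libraries left out in turn. Members at an unadjusted p under 0.05 numbered between 1 (without KO library B) and 5 (without KO library C) when a library was left out, 2 and 0 with minimum means of 5 and 10, and 6 with none. All genes called numbered 0 with limma-voom and between 0 and 2 when a library was left out. No paired analysis was possible because the recovered libraries carry no sample number. Depth limits the lower genes, since 40 of 66 replication-dependent genes had a mean under 10, and no spread is known for the 17 highest members.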
